A study of Mus musculus with 2 samples.

Results

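Pi16 fibroblasts are adventitial fibroblasts, the matrix-rich mesenchymal cells that surround the larger vessels and airways of the lung. The cells described here are those that the submitters' class column calls Pi16 fibroblasts, kept where at least 500 genes were detected and at most 10% of counts were mitochondrial. They numbered 2018 of 14229 kept cells, 796 of 6089 in the high fat diet (HFD) library and 1222 of 8140 in the normal chow (NC) library. Both libraries held fibroblastic stroma from lungs of C57Bl/6J mice and were made with a droplet kit that reads the 3′ ends of transcripts. HFD mice had been fed a high fat diet for 16 weeks and NC mice normal chow for 16 weeks. The age and sex of the animals, how many were pooled and how the stroma was isolated were not given in the sources used here. Each diet is 1 library, so no difference has a replicate check or a test, and each diet comparison sets these libraries side by side.

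Adventitial fibroblasts are known as a reservoir of progenitor-like mesenchymal cells that is shared by many organs. They lay down the collagen, elastic fibre and proteoglycan sheath of the vessel wall, exchange hedgehog, WNT and BMP signals with the epithelium and smooth muscle, and make chemokines and alarmins for resident immune cells. Pi16 encodes a secreted or membrane-anchored peptidase inhibitor that marks this population together with Ly6a (Sca-1), Cd34 and Clec3b. The classes set beside it were Asc1 and Gas6 fibroblasts, which carry alveolar fibroblast genes, myofibroblasts and pericytes.

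Levels are given as CPM, a gene's summed counts in the class over all summed counts of the class in that library, scaled so that a class adds up to 1000000. Ranges in parentheses are 95% intervals that cover counting error only, on counts divided by a variance factor (4.85 in HFD and 3.98 in NC). Pi16 fibroblasts held a median of 10302 counts and 1434 genes per cell in HFD, against 7487 counts and 1333.5 genes in NC. Mitochondrial counts took a median of 3.91% per cell in HFD and 3.64% in NC, and ribosomal protein counts 7.98% and 7.34%. Of the kept cells, 16 cell barcodes occurred in both libraries, and 0 of these were Pi16 fibroblasts in both. The cell limits left out 3 HFD and 1 NC class cells with too few genes and 33 HFD and 52 NC class cells with too many mitochondrial counts. The class cells nearest to the gene limit had 488 genes outside and 513 inside it in HFD, and 487 and 503 in NC. Nearest to the mitochondrial limit they had 10.11% outside and 9.897% inside it in HFD, and 10.06% and 9.991% in NC.

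Levels of adventitial fibroblast markers are set out first, and all but Dpt were highest in the class. The classes were made from these same cells and this one is named after Pi16, so the levels describe the label and do not test it. Pi16 itself was at 717 CPM (677 to 758) in HFD and 625 CPM (594 to 658) in NC Pi16 fibroblasts. In the class with the next highest level, Gas6 fibroblasts, it was at 59.4 CPM in HFD and 66.4 CPM in NC. Dcn, the collagen-binding proteoglycan decorin, was at 6434 CPM in HFD and 6755 CPM in NC Pi16 fibroblasts, and Igfbp6, which binds insulin-like growth factors, was at 2008 CPM in HFD and 2126 CPM in NC. Clec3b, a plasminogen-binding lectin, was at 1397 CPM in HFD and 1787 CPM in NC, and Serpinf1, the anti-angiogenic factor PEDF, at 657 CPM in HFD and 586 CPM in NC. Ly6a was at 584 CPM in HFD and 763 CPM in NC. These 6 markers were highest in Pi16 fibroblasts in both libraries. The exception was Dpt, the matrix protein dermatopontin, at 478 CPM in HFD and 533 CPM in NC Pi16 fibroblasts and at 666 and 571 CPM in HFD and NC myofibroblasts.

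**Figure D1:**
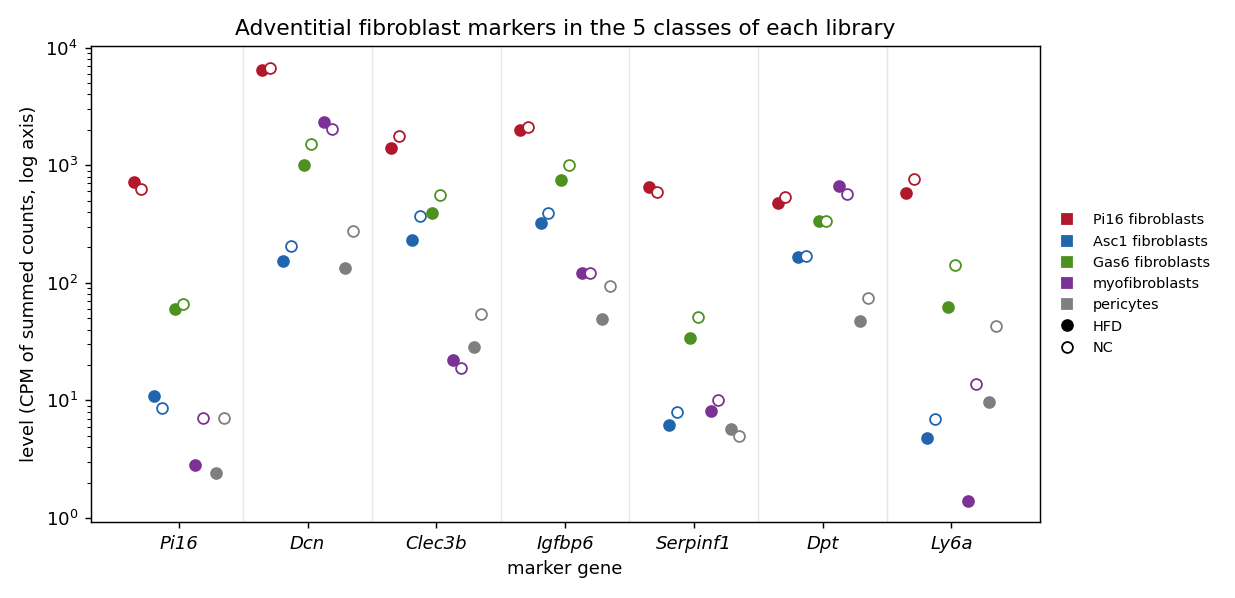
Levels of the 7 adventitial markers (horizontal axis) in CPM on a log axis, for the 5 classes (colours) of the HFD library (filled) and the NC library (open); there are no replicates and no error bars. Pi16 fibroblasts are highest for every marker except Dpt, which is highest in myofibroblasts, and Gas6 fibroblasts come next for Pi16, Clec3b, Igfbp6, Serpinf1 and Ly6a.

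A Pi16 fibroblast carried a median of 5 of the 7 markers in both libraries. At least 3 markers were seen in 91.8% of HFD and 93.1% of NC Pi16 fibroblasts, and in 60.4% of HFD and 72.8% of NC Gas6 fibroblasts. A Pi16 count was present in 54.02% of HFD Pi16 fibroblasts and in 54.2% of those from NC. With every cell thinned to 2000 counts, the shares were 41.6% in HFD and 39.6% in NC, where 1 shallower cell was left out. In pericytes, taken as a class that should lack the gene, a Pi16 count was seen in 2.68% of HFD and 3.2% of NC cells, although these cells were deeper (medians of 19714.5 and 15459.5 counts). Of 2 further surface markers of such progenitors in other organs, Dpp4 was near 0 and Cd9 was shared with other classes. Dpp4, the dipeptidyl peptidase CD26, was at 4.73 CPM in HFD and 6.97 CPM in NC, and Cd9, a tetraspanin, at 563 CPM in HFD and 461 CPM in NC Pi16 fibroblasts against 962 and 902 CPM in HFD and NC pericytes.

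Beyond these markers, Pi16 fibroblasts were set apart by surface receptors, secreted proteins and an enzyme set. Of 7497 genes with enough counts to be compared (at least 50 counts after division by the variance factor), 115 (1.53%) were at least 2-fold above the highest other class in both libraries. The classes were made from these same cells, so this describes the class and tests nothing. Ly6c1, a Ly6 surface antigen, was at 149 CPM in HFD and 181 CPM in NC Pi16 fibroblasts, 16.8 and 16.6 times the next class. Scara5, a scavenger receptor that takes up ferritin, was at 119.9 CPM in HFD and 115 CPM in NC. It was 12.6 times the next class in HFD and 15.6 times in NC. The surface proteins Cd34, a sialomucin, and Cd248 (endosialin) were at 403 CPM in HFD and 365 CPM in NC and at 99.6 CPM in HFD and 102 CPM in NC. Next to each of these, Gas6 fibroblasts held the second highest level in both libraries.

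Enzymes and channels of the class included Entpd2, which breaks down extracellular ATP, at 223 CPM in HFD and 229 CPM in NC Pi16 fibroblasts, and Adh7, an alcohol dehydrogenase that acts on retinol, at 124 CPM in HFD and 88.96 CPM in NC. Aqp1, a water channel, was at 304 CPM in HFD and 146 CPM in NC. Among immune signals, the eosinophil chemokine Ccl11 was at 313 CPM in HFD and 428 CPM in NC and the alarmin Il33 at 69.7 CPM in HFD and 94.9 CPM in NC. Of 19 measured chemokines and cytokines, 4 marked the class at the 2-fold limit. Among matrix and growth factor proteins, Fbln2 (fibulin 2) was at 196 CPM in HFD and 181 CPM in NC, Cilp, which binds TGF-beta, at 91.7 CPM in HFD and 67.2 CPM in NC and Lamc3, a laminin chain, at 119 CPM in HFD and 75.2 CPM in NC. Igfbp4 was at 1152 CPM in HFD and 1205 CPM in NC. Ramp2, which pairs with the adrenomedullin receptor, was at 78.2 CPM in HFD and 67.9 CPM in NC, and Tspan11, a tetraspanin, at 113 CPM in HFD and 95.2 CPM in NC. Ifi205, an interferon-inducible gene with near-identical relatives that could share its reads, was at 97.5 CPM in HFD and 243 CPM in NC.

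A smaller set was low in the class. A further 22 genes (0.293%) were at least 2-fold below the lowest other fibroblast class in both libraries. Thbs1, the TGF-beta activator thrombospondin 1, was at 625 CPM in HFD and 1099.6 CPM in NC Pi16 fibroblasts, against 2179 and 3181 CPM in Asc1 fibroblasts, the next lowest fibroblast class. Pericytes, at 1093 and 2315 CPM in HFD and NC, lay between. Serpine2, a thrombin inhibitor, was at 72.8 CPM in HFD and 72.2 CPM in NC. Odc1, the first enzyme of polyamine synthesis, was at 124 CPM in HFD and 176 CPM in NC, the nuclear receptor Nr4a2 at 156 CPM in HFD and 145 CPM in NC and Fermt2 (kindlin 2), an integrin activator, at 185 CPM in HFD and 219.7 CPM in NC.

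The 5 genes whose levels ran most like those of Pi16 over the 10 levels (5 classes in 2 libraries, log2 of CPM plus 1) were Tspan11, Tmed3, Adamts2, Serpinf1 and Col1a1. Their Pearson r with Pi16 was 0.993, 0.978, 0.977, 0.972 and 0.971. This is a description over 10 points that share 2 libraries, and both libraries' class levels enter each r. Adamts2, which trims the ends of fibrillar procollagens, was at 256 CPM in HFD and 259.8 CPM in NC Pi16 fibroblasts, and Col1a1, a chain of type I collagen, at 995 CPM in HFD and 1007 CPM in NC.

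Markers of other cell types varied from absent to shared, and alveolar fibroblast genes were the most abundant of them. The endothelial marker Pecam1, the epithelial markers Epcam and Sftpc, the leukocyte marker Ptprc and the mesothelial marker Msln were detected in 0 of 796 Pi16 fibroblasts from HFD and in 0 of 1222 from NC, and in 0 cells of the other classes. By the limit of 3 counts of the total, a count of 0 allows a share of cells with a count of up to 0.377% in HFD and 0.245% in NC. Whether cells with these genes had been taken out before deposit is not known. If they had, the 0 in every class was set by that step and the limit has no meaning. The 0 is therefore not used here to describe the purity of the class. The mesothelial markers Upk3b and Wt1 were seen in 8 and 7 HFD Pi16 fibroblasts and in 7 and 8 from NC. Summed over 8 endothelial markers in the tables, the level was 26.6 CPM in HFD and 28.6 CPM in NC, against 1.95 and 3.83 CPM in the other 3 fibroblast classes pooled. Nearly all of it was Tek, the angiopoietin receptor, at 25.3 CPM in HFD and 27.05 CPM in NC Pi16 fibroblasts, which was at least 2-fold above every other class. The sums were 69.5 and 105 CPM over 12 immune markers, 98.7 and 138 CPM over 10 mesothelial markers, 42.6 and 35.9 CPM over 9 epithelial markers and 10.3 and 10.7 CPM over 6 Schwann and neural markers. The 10 smooth muscle markers summed to 452 CPM in HFD and 464 CPM in NC, the 10 pericyte markers to 242 and 186 CPM and the 10 myofibroblast markers to 663 and 516 CPM. Of 3 measured pericyte markers, 1 was at least 2-fold above every other class, pericytes included, in both libraries. The pericyte sum thus holds in part a gene that marks Pi16 fibroblasts. The 14 alveolar fibroblast markers summed to 5766 CPM in HFD and 4419.7 CPM in NC Pi16 fibroblasts, against 17272 and 12703 CPM in the other 3 fibroblast classes pooled. Most of that was Inmt, a methyltransferase, at 2576 CPM in HFD and 2092 CPM in NC Pi16 fibroblasts, and Mfap4. Slc7a10, the transporter for which Asc1 fibroblasts are named, was at 6.03 CPM in HFD and 2.43 CPM in NC. Free RNA and cells of alveolar type within the class cannot be told apart from expression by Pi16 fibroblasts in these sums.

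Within the class, cells with a Pi16 count carried more of most class genes than cells without one, in both libraries. There were 430 HFD and 662 NC cells with a Pi16 count and 366 HFD and 560 NC cells without one. Depth was close, with medians of 10580.5 and 9899 counts in HFD cells with and without Pi16, and 7563 and 7359 in NC cells. Of 41 class genes and markers at 50 CPM or more on either side in both libraries, 28 had an interval above 1 in both libraries and 5 an interval below 1 in both. Cells without a count can still express Pi16, so the split separates the cells only in part, and the genes were picked with results known. These ratios were not computed over all genes, so the counts have no share to be set against.

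Ly6c1 was at 242 CPM in HFD cells with and 31.5 CPM in HFD cells without a Pi16 count, a ratio of 7.66 (5.03 to 12.2). In NC cells it was at 273 and 62.7 CPM, a ratio of 4.36 (3.34 to 5.76). Cd248 had ratios of 3.75 (2.52 to 5.75) in HFD and 4.54 (3.17 to 6.68) in NC. For the progenitor genes Anxa3, an annexin, and Cd55, a complement decay factor, the ratios were 3.18 and 2.53 in HFD and 3.41 and 2.16 in NC. Sema3c, a guidance factor, had ratios of 3.55 (1.92 to 7.12) in HFD and 2.23 (1.399 to 3.65) in NC. Collagens followed, with Col14a1 at ratios of 2.01 in HFD and 2.22 in NC and Col15a1 at 1.95 and 1.64. Dcn was at 8246 and 4148 CPM in HFD cells with and without Pi16, and at 8086 and 5058 CPM in NC cells.

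The cells without a Pi16 count carried more of some alveolar fibroblast genes. Npnt, the matrix ligand nephronectin and an alveolar fibroblast marker, had ratios of 0.255 (0.193 to 0.334) in HFD and 0.238 (0.1803 to 0.311) in NC. Inmt was at ratios of 0.6003 (0.566 to 0.637) in HFD and 0.654 (0.618 to 0.692) in NC, Thbs1 at 0.403 (0.355 to 0.458) and 0.564 (0.521 to 0.6099), and the lymphoid chemokine Ccl19 at 0.564 (0.427 to 0.743) and 0.475 (0.378 to 0.594). The contractile gene Acta2 had ratios of 1.02 (0.773 to 1.35) in HFD and 0.754 (0.612 to 0.929) in NC. Overlap between the libraries was also not counted over all genes, so the count that follows has no share beside it. For 9 of the 41 genes the intervals of the libraries did not overlap, Aspn, Cilp, Dpt, Dcn, Ccl11, Il33, Ly6a, Serpinf1 and Thbs1. Of these, Aspn (asporin) had a ratio of 1.86 (1.397 to 2.503) in HFD and 0.952 (0.704 to 1.29) in NC, Cilp 3.005 (2.04 to 4.54) in HFD and 1.12 (0.808 to 1.56) in NC, and Dpt 1.44 (1.25 to 1.67) in HFD and 1.01 (0.898 to 1.13) in NC. Lamc3, a marker of the class, was not higher in cells with a Pi16 count, with ratios of 0.921 (0.694 to 1.22) in HFD and 0.658 (0.484 to 0.893) in NC.

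**Figure D2:**
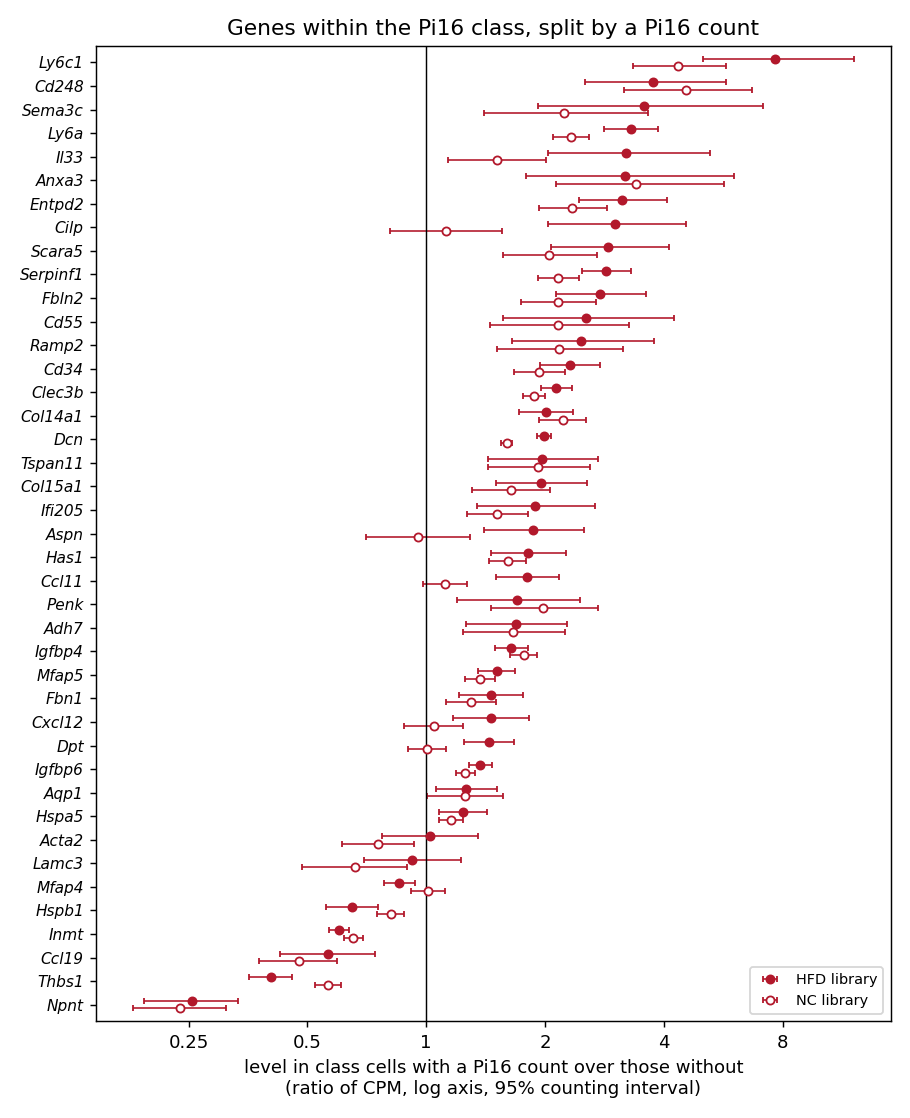
Ratio of the level in Pi16 fibroblasts with a Pi16 count to that in Pi16 fibroblasts without one (log axis), for 41 class genes and markers in the HFD library (filled) and the NC library (open), with 95% intervals for counting error. Ly6c1, Cd248 and Ly6a lie far above 1 in both libraries, and Npnt, Thbs1, Ccl19 and Inmt lie below 1 in both.

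An earlier class column of the NC table split the same cells further. It called 889 of the 1222 NC Pi16 fibroblasts Pi16+, 198 Pi16-Col13a1+ and 96 Acs1+, named 6 as mesothelial cells and 1 as a myofibroblast, and gave 32 no name. Those called Pi16+ had Pi16 at 729 (689 to 771) CPM, those called Pi16-Col13a1+ at 312 (264 to 366) CPM and those called Acs1+ at 266 (181 to 377) CPM. Serpinf1 was at 719, 204 and 132 CPM in that order, and Ly6a at 911, 316 and 119 CPM. Npnt ran the other way, at 65.99, 286 and 462 CPM, while Igfbp6, at 2101, 2075 and 1755 CPM, differed less. Col13a1, for which the second group is named, was at 44.7, 82.5 (58.96 to 112) and 113 (60.6 to 192) CPM. The submitters gave these names to these same cells, in part after these genes. The levels therefore describe the groups and test nothing. In HFD the earlier columns gave totals that matched those of the cells in the same rows (within 1%) for only 6.24% of cells, so that column was not used there.

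The class was a slightly smaller part of the HFD library. Pi16 fibroblasts made up 13.1% of kept HFD cells (12.2 to 13.9%) and 15.01% of kept NC cells (14.2 to 15.8%). Among kept fibroblasts of the 4 classes alone the shares were 14.5% (13.6 to 15.5%) in HFD and 15.5% (14.7 to 16.3%) in NC, with overlapping intervals. With a later subset column of the tables, which places 84 further HFD and 52 further NC cells in the class, the shares of kept cells were 14.4% in HFD and 15.6% in NC. Shares also move with dissociation and with the shares of the other classes, and no share of cells in the tissue follows from them.

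Most genes of Pi16 fibroblasts differed little between the diets. Over the 7497 genes compared, the median log2 ratio of HFD over NC was 0.013, and 88.4% of genes lay within 1.5-fold. At least 1.5-fold higher in HFD were 427 genes (5.7%), and at least 1.5-fold lower 441 genes (5.88%). In the other 3 fibroblast classes pooled, which held more cells, the same genes gave 180 (2.4%) higher and 321 (4.28%) lower. These are sizes and not calls of a test. Ratios of the other fibroblasts pooled, here and below, also carry the change in their mix of classes between the libraries. Lists with a larger share than this lower in HFD included glucocorticoid targets, cholesterol synthesis, heat shock, ER chaperone, chemokine and interferon genes, and lists with a larger share higher included WNT and mesenchymal transcription factor genes. Counts of list members past 1.5-fold are set against 5.7% and 5.88%. HFD cells held more counts (medians of 10302 in HFD and 7487 in NC). Thinning sets the counts of cells equal but leaves the difference in counts per cell with a count described above, so depth is matched only in part. With cells thinned to 2000 counts, the log2 ratio was −1.41 in place of −1.52 for Hspa5, −1.59 in place of −1.45 for Has1 and 1.12 in place of 1.10 for Wnt5a. Diet cannot be told apart from library.

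The folding genes of the endoplasmic reticulum (ER) come first, since some of their promoters share a sequence that can be shown. When unfolded protein builds up in the ER, the factors ATF6 and XBP1 act on the ER stress response element (ERSE), which reads CCAAT, then 9 bases of any kind, then CCACG. A shorter form, ERSE-II, reads ATTGG, any base, then CCACG. Heat shock factors bind inverted repeats, searched here as GAA, 2 free bases, TTC, 2 free bases and GAA. Each motif was searched on both strands in 32851 promoter windows of the RefSeq annotation of GRCm38.p6 (250 bases before to 50 after each start), which matched 23 of 26 genes of the ER list, 18 of them measured in the class. ERSE occurred in 0.119% of all windows and in 8 of these 18 measured genes, ERSE-II in 0.0365% of all windows and in 2 of them. The heat shock motif occurred in 0.603% of windows and in 4 of 15 measured heat shock genes with a window, namely Hsph1, Hspd1, Hspe1 and Chordc1. A match is a description of these letters and not evidence of binding in these cells. Windows were counted singly and a gene by any of its windows, so these shares are unlike units and were not tested.

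The 250 bases before the start are shown for Hspa5 (lowest ratio of the list), Creld2, Herpud1 and the heat shock gene Hspe1, in the direction of the gene and with the matched motif in capitals. They lie at chr2:34771840-34772089, plus strand for Hspa5, at chr15:88819396-88819645, plus strand for Creld2, where the match is on the opposite strand to the gene, at chr8:94386179-94386428, plus strand for Herpud1 (ERSE-II) and at chr1:55087898-55088147, plus strand for Hspe1, where 2 matches overlap in a promoter shared with Hspd1.
Hspa5: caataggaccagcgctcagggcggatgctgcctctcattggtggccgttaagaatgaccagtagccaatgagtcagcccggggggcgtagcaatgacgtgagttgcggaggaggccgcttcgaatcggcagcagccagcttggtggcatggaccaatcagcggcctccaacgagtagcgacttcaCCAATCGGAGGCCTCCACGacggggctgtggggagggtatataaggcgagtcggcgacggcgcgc
Creld2: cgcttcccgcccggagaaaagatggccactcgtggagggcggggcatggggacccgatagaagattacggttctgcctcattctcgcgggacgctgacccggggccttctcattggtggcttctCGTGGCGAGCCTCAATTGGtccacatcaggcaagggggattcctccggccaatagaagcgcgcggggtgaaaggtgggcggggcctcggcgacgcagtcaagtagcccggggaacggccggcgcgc
Herpud1: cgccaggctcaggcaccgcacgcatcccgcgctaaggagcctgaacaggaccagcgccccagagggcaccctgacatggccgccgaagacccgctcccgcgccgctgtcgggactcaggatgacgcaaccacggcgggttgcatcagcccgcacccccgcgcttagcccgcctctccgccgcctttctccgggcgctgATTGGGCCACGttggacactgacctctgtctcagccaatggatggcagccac
Hspe1: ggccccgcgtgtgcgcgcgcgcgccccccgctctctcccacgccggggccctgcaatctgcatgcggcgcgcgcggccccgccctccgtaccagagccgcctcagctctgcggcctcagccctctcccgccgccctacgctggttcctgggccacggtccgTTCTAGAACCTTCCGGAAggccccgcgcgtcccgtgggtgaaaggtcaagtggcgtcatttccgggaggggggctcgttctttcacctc

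The ERSE matches of 6 measured ER genes with a single match each are set out in the direction of the motif, with its fixed letters in capitals, to show that the fixed ends are joined by unlike middles.
Hspa5: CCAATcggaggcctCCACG
Creld2: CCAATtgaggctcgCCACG
Pdia6: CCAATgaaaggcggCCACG
Calr: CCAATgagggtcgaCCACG
Dnajc3: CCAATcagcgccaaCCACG
Canx: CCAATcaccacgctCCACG

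Hspa5 (BiP), the main chaperone of the ER lumen, was at 490.3 CPM in HFD and 1404 CPM in NC Pi16 fibroblasts, a ratio of 0.349 (0.324 to 0.377). Counts were found in 67.3% of HFD cells and in 83.3% of NC cells, and after thinning to 2000 counts in 45.4% (HFD) and 68.9% (NC). The other fibroblasts pooled had a ratio of 0.381 (0.369 to 0.393) for this gene. Of the other genes with an ERSE match, Creld2, an ER chaperone, was at 21.04 CPM in HFD and 35.3 CPM in NC, a ratio of 0.596 (0.393 to 0.889). Pdia6, a disulfide isomerase, was at 189 CPM in HFD and 259.7 CPM in NC, a ratio of 0.728 (0.635 to 0.833), and Calr (calreticulin) at 328 CPM in HFD and 437 CPM in NC, a ratio of 0.751 (0.677 to 0.833). Hsp90b1 (GRP94), with 2 matches, was nearer to 1 at a ratio of 0.866 (0.803 to 0.935), as were Dnajc3 at 0.865 (0.751 to 0.995), Canx (calnexin) at 0.929 (0.8003 to 1.08) and Syvn1 at 0.868 (0.533 to 1.39). The ratios of the 8 genes with an ERSE match thus ran over 0.349 to 0.929.

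Over the whole ER list, 21 members were measured, and 6 were at least 1.5-fold lower in HFD and 1 higher. The list had a median log2 ratio of −0.46, against −0.56 for the same genes in the other fibroblasts. Manf, a secreted ER stress factor, was at 119.6 CPM in HFD and 302 CPM in NC, a ratio of 0.397 (0.338 to 0.463), Hyou1, a further ER chaperone, at 10.8 CPM in HFD and 23.6 CPM in NC, a ratio of 0.457 (0.255 to 0.782), Sdf2l1 at 18.6 CPM in HFD and 40.1 CPM in NC, a ratio of 0.462 (0.3002 to 0.695), and Herpud1, which takes part in ER degradation, at 144 CPM in HFD and 223 CPM in NC, a ratio of 0.645 (0.553 to 0.751). Xbp1 was at a ratio of 0.6904, Atf4 at 0.867 and Atf6 at 0.935. Crebrf, which restrains this response, was the member on the other side, at 53.5 CPM in HFD and 34.02 CPM in NC, a ratio of 1.57 (1.16 to 2.15).

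Of the cytosolic heat shock genes, 8 of 20 measured members were lower by at least 1.5-fold and 0 higher. The list had a median log2 ratio of −0.49, against −0.51 for the same genes in the other fibroblasts. Hspb1 was at 414 CPM in HFD and 1064 CPM in NC Pi16 fibroblasts, a ratio of 0.389 (0.357 to 0.422). It has a near-identical pseudogene copy that could share its reads, so its level is uncertain. Dnaja1, a co-chaperone, was at 410.2 CPM in HFD and 626 CPM in NC, a ratio of 0.655 (0.598 to 0.717), and the Hsp90 partners Stip1 and Fkbp4 had ratios of 0.465 (0.293 to 0.717) and 0.533 (0.384 to 0.7302). Of the genes with the heat shock motif, Hsph1 was at a ratio of 0.606 (0.484 to 0.755), Hspd1 at 0.7198 (0.581 to 0.889), Hspe1 at 0.725 (0.639 to 0.821) and Chordc1 at 0.822 (0.584 to 1.15). The inducible pair Hspa1a and Hspa1b, whose near-identical sequences could share reads, stayed near 1 at 0.9902 and 1.12. Immediate early genes, which can respond to dissociation, had a median log2 ratio of −0.03, against 0.01 for the same genes in the other fibroblasts. Of 25 measured members, 2 were lower by 1.5-fold (Myc and Ier5) and 0 higher. The part of dissociation in any of these lists was not tested. Fos was at 4447 CPM in HFD and 3618 CPM in NC and Jun at 2942 CPM in HFD and 2505 CPM in NC.

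Of 14 measured glucocorticoid targets, 7 were lower in HFD Pi16 fibroblasts and 0 higher, with a median log2 ratio of −0.59, against −0.68 for the same genes in the other fibroblasts. Fkbp5, a brake on the glucocorticoid receptor, was at 16.9 CPM in HFD and 34.7 CPM in NC, a ratio of 0.488 (0.309 to 0.751). Errfi1, an inhibitor of EGF receptor signalling, was at 180.1 CPM in HFD and 436 CPM in NC, a ratio of 0.413 (0.363 to 0.469), and the metal-binding metallothionein gene Mt2 at 571 CPM in HFD and 1149 CPM in NC, a ratio of 0.497 (0.462 to 0.535). Mt2 had counts in 30.8% of HFD cells and 55.7% of NC cells after thinning to 2000 counts (42.2% and 70.6% before it). Tsc22d3 (GILZ) was at 98.3 CPM in HFD and 190.2 CPM in NC, a ratio of 0.517 (0.431 to 0.618), and Angptl4, an inhibitor of lipoprotein lipase, at 36.5 CPM in HFD and 80.9 CPM in NC, a ratio of 0.451 (0.334 to 0.602). Sgk1, whose window holds the only full glucocorticoid motif (AGAACA, 3 free bases and TGTTCT, the same letters on both strands) among 11 measured targets with a window, was at 86.6 CPM in HFD and 129.96 CPM in NC, a ratio of 0.667 (0.545 to 0.813). That motif stood in 3 of the 32851 windows. The receptor gene Nr3c1 was at 135 CPM in HFD and 98.2 CPM in NC, a ratio of 1.37 (1.14 to 1.65), and Dusp1 at a ratio of 1.09 (1.04 to 1.15).

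Among chemokines and cytokines, 5 of 19 measured members were lower and 0 higher, with a median log2 ratio of −0.30, against −0.54 for the same genes in the other fibroblasts. Cxcl2, a neutrophil chemokine, was at 14.3 CPM in HFD and 81.6 CPM in NC Pi16 fibroblasts, a ratio of 0.175 (0.111 to 0.267). Only 8 HFD and 46 NC cells had a count, and 10 cells held 100% of HFD and 66.6% of NC counts. Ccl2, a monocyte chemokine, was at 78.2 CPM in HFD and 179 CPM in NC, a ratio of 0.437 (0.358 to 0.531), with 84.4% of HFD and 50.1% of NC counts in 10 cells. These levels therefore describe few cells, and with stricter cell limits (1000 genes, 5% mitochondrial) the log2 ratio of Ccl2 was −1.98 in place of −1.19. Cxcl10 was at 75.5 CPM in HFD and 156 CPM in NC, a ratio of 0.486 (0.395 to 0.594), Ccl7 at 74.2 CPM in HFD and 137 CPM in NC, a ratio of 0.543 (0.439 to 0.668), and Il6 at 359 CPM in HFD and 551 CPM in NC, a ratio of 0.6504 (0.5903 to 0.716). The class markers Ccl11 and Il33 were at ratios of 0.731 (0.657 to 0.812) and 0.735 (0.585 to 0.9205).

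NF-kB signalling, with 2 of 18 lower and 0 higher, had a median log2 ratio of −0.29, against −0.32 for the same genes in the other fibroblasts. Nfkbib, an inhibitor of the pathway, was at 18.7 CPM in HFD and 42.9 CPM in NC, a ratio of 0.435 (0.284 to 0.652), and the subunit Nfkb1 at 90.4 CPM in HFD and 138 CPM in NC, a ratio of 0.653 (0.537 to 0.792). Interferon and MHC class I genes had a median log2 ratio of −0.26, against −0.10 for the same genes in the other fibroblasts, with 5 of 24 lower and 1 higher. The higher member was Ifit3, at 22.2 CPM in HFD and 12.3 CPM in NC, a ratio of 1.81 (1.09 to 3.04), while its relative Ifit1 was at 8.63 CPM in HFD and 17.9 CPM in NC, a ratio of 0.483 (0.249 to 0.888). Psmb8, an immunoproteasome subunit, was at 47.6 CPM in HFD and 83.996 CPM in NC, a ratio of 0.567 (0.434 to 0.736), and Isg15 at 34.99 CPM in HFD and 59.8 CPM in NC, a ratio of 0.585 (0.426 to 0.795). In the other fibroblasts these genes were at ratios of 0.994 and 0.896. Complement genes had 0 of 14 lower and 1 higher (C1qtnf2, at a ratio of 1.51), with C3, the central component, at 1615 CPM in HFD and 2133 CPM in NC, a ratio of 0.757 (0.723 to 0.793), and a list median of −0.10. Immune markers summed to 69.5 CPM in HFD and 105 CPM in NC Pi16 fibroblasts. Their part in these lists was not tested.

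The list of 21 small proteoglycan and hyaluronan genes lay near the shares over all genes (5.7% higher and 5.88% lower), so it does not stand out as a list. Has1 and Tnfaip6 were its members past 1.5-fold on the lower side. Both act on hyaluronan, the large sugar polymer of loose connective tissue. Has1, a hyaluronan synthase, was at 230.5 CPM in HFD and 629.9 CPM in NC Pi16 fibroblasts, a ratio of 0.366 (0.327 to 0.409), and had counts in 14.8% of HFD cells and 30.3% of NC cells after thinning to 2000 counts (19.8% and 37.9% before it). Tnfaip6, which crosslinks hyaluronan, was at 221 CPM in HFD and 389 CPM in NC, a ratio of 0.568 (0.503 to 0.6399). Uap1, ranked among all genes and outside this list, which makes the precursor UDP-N-acetylglucosamine, was at 68.3 CPM in HFD and 155 CPM in NC, a ratio of 0.4399 (0.355 to 0.542), and Ugdh, which makes the other sugar precursor, at a ratio of 0.746 (0.625 to 0.889). The other fibroblasts had a like ratio for Has1, 0.354 (0.327 to 0.382). A second synthase, Has2, was at 26.6 CPM in HFD and 27.7 CPM in NC, a ratio of 0.961 (0.645 to 1.42). Also in the list, Aspn was at 133 CPM in HFD and 76.5 CPM in NC, a ratio of 1.74 (1.43 to 2.12), and Ogn (osteoglycin) at 1188 CPM in HFD and 794 CPM in NC, a ratio of 1.497 (1.41 to 1.59). The list had 1 member higher (Aspn) and 2 lower by 1.5-fold (Has1 and Tnfaip6), and a median log2 ratio of 0.06, against −0.24 for the same genes in the other fibroblasts.

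The collagen, elastic fibre and protease lists lay close to 0 in Pi16 fibroblasts and below it in the other fibroblasts pooled. The pooled values also carry the change in the mix of classes, with Gas6 fibroblasts at 19.9% of HFD and 25.4% of NC fibroblasts. List medians of the single other classes were not computed, so a change within each of them does not follow. Of 20 measured collagens, 0 were higher and 0 lower by 1.5-fold, with a median log2 ratio of −0.002, against −0.33 for the same genes in the other fibroblasts. Col1a1 was at 995 CPM in HFD and 1007 CPM in NC, a ratio of 0.988 (0.928 to 1.05), Col3a1 at 1597 CPM in HFD and 1919 CPM in NC, a ratio of 0.832 (0.793 to 0.872), and Col23a1, a membrane collagen, at 107 CPM in HFD and 74.3 CPM in NC, a ratio of 1.44 (1.17 to 1.78). Elastic fibre and microfibril genes had a median log2 ratio of 0.02, against −0.22 for the same genes in the other fibroblasts, with 1 of 22 higher and 1 lower. Mfap4, a microfibril glycoprotein that binds elastin, was at 1109.9 CPM in HFD and 685 CPM in NC, a ratio of 1.62 (1.52 to 1.73), against 2.24 (2.198 to 2.28) in the other fibroblasts, the elastin gene Eln at 412 CPM in HFD and 348 CPM in NC, a ratio of 1.19 (1.07 to 1.31), and Fbln5, which assembles elastic fibres, at 149 CPM in HFD and 114 CPM in NC, a ratio of 1.304 (1.096 to 1.55). Emilin2 was at 16.1 CPM in HFD and 31.2 CPM in NC, a ratio of 0.516 (0.321 to 0.806). Proteases and their inhibitors had a median log2 ratio of −0.03, against −0.32 for the same genes in the other fibroblasts, with 1 of 27 higher and 3 lower. Ctsk, the collagen-degrading cathepsin K, was at 140.2 CPM in HFD and 85.2 CPM in NC, a ratio of 1.65 (1.36 to 1.99), and Timp1, an inhibitor of matrix metalloproteinases, at 164 CPM in HFD and 285 CPM in NC, a ratio of 0.575 (0.499 to 0.661). Adamts4, which cleaves proteoglycans, was at 17.7 CPM in HFD and 35.6 CPM in NC, a ratio of 0.498 (0.319 to 0.75995).

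Most adventitial genes of the class lay within 1.5-fold between diets. The class was made from these same cells in both libraries, so like levels of its identity genes describe it and test nothing. Of 15 measured progenitor and adventitial surface genes, 2 were higher and 0 lower, with a median of 0.0022. Cd200, an immune inhibitory ligand, was at 44.1 CPM in HFD and 22.4 CPM in NC, a ratio of 1.97 (1.37 to 2.85), and Pdgfrb, a platelet-derived growth factor receptor, at 108 CPM in HFD and 63.3 CPM in NC, a ratio of 1.6996 (1.36 to 2.12). Of 25 adventitial matrix and secreted genes, 1 was higher (Adamtsl4, at a ratio of 1.54) and 0 lower, with a median of 0.05. Of the 7 markers, the ratios were 1.15 (1.06 to 1.24) for Pi16, 1.12 (1.04 to 1.21) for Serpinf1, 0.952 (0.9296 to 0.976) for Dcn, 0.945 (0.905 to 0.987) for Igfbp6, 0.896 (0.8204 to 0.979) for Dpt, 0.782 (0.744 to 0.822) for Clec3b and 0.765 (0.708 to 0.827) for Ly6a. All 7 lay within 1.5-fold, each with an interval that left out 1.

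Of 14 measured WNT genes, 4 were at least 1.5-fold higher and 0 lower, with a median log2 ratio of 0.21, against 0.06 for the same genes in the other fibroblasts. Wnt5a, a ligand of the non-canonical branch, was at 61.3 CPM in HFD and 28.5 CPM in NC Pi16 fibroblasts, a ratio of 2.15 (1.57 to 2.96), with 116 of 796 HFD and 96 of 1222 NC cells having a count. In the other fibroblasts its ratio was 1.09 (0.943 to 1.26). Axin2, a target and inhibitor of canonical WNT signalling, was at 32.9 CPM in HFD and 19.2 CPM in NC, a ratio of 1.71 (1.14 to 2.58), Nkd2 at 19.5 CPM in HFD and 10.2 CPM in NC, a ratio of 1.903 (1.098 to 3.34), and Notum, which removes a lipid from WNT proteins, at 36.8 CPM in HFD and 23.6 CPM in NC, a ratio of 1.56 (1.07 to 2.27). The hedgehog and BMP list was near the share over all genes, with 2 of 26 members higher and 1 lower and a median log2 ratio of 0.05, against −0.03 for the same genes in the other fibroblasts. Ptch1, the hedgehog receptor and a target of the pathway, was at 290.2 CPM in HFD and 166 CPM in NC, a ratio of 1.75 (1.53 to 2.005), with counts in 26.5% of HFD cells and 16.4% of NC cells after thinning to 2000 counts (41.5% and 26.3% before it). Hhip, a decoy for hedgehog and also a target, was at 191 CPM in HFD and 116 CPM in NC, a ratio of 1.64 (1.39 to 1.93), but Gli1, a further target, at 42.2 CPM in HFD and 43.3 CPM in NC, a ratio of 0.974 (0.712 to 1.33). Bmp4 was at 137 CPM in HFD and 93.6 CPM in NC, a ratio of 1.46 (1.21 to 1.76).

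Of 31 measured mesenchymal transcription factors, 6 were higher and 1 lower, with a median log2 ratio of 0.36, against 0.31 for the same genes in the other fibroblasts. Cbfa2t3, a corepressor, was at 60.6 CPM in HFD and 25.04 CPM in NC, a ratio of 2.42 (1.75 to 3.39), and Hes1, a Notch effector, at 149.9 CPM in HFD and 86.1 CPM in NC, a ratio of 1.74 (1.44 to 2.1004). Osr2, a zinc finger factor, was at 22.5 CPM in HFD and 12.3 CPM in NC, a ratio of 1.83 (1.11 to 3.07), and Mef2c at 65.7 CPM in HFD and 41.2 CPM in NC, a ratio of 1.59 (1.21 to 2.11). Tbx2 was at 116 CPM in HFD and 73.96 CPM in NC, a ratio of 1.57 (1.27 to 1.93), and Nr2f2 (COUP-TFII) at 278 CPM in HFD and 196 CPM in NC, a ratio of 1.42 (1.24 to 1.61). The TGF-beta list had 2 of 19 members higher and 2 lower, with the ligand Tgfb3 at 87.7 CPM in HFD and 50.2 CPM in NC, a ratio of 1.75 (1.37 to 2.24), and Thbs1 at 625 CPM in HFD and 1099.6 CPM in NC, a ratio of 0.569 (0.529 to 0.611). Its median was −0.00036.

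The other genes at the higher end of the ranking were of diverse function. Slc16a9, a carnitine and creatine transporter, was at 75.9 CPM in HFD and 30.3 CPM in NC Pi16 fibroblasts, the highest ranked ratio at 2.503 (1.86 to 3.38), against 1.298 (1.16 to 1.45) in the other fibroblasts. Aqp1, which also marks the class, was at 304 CPM in HFD and 146 CPM in NC, a ratio of 2.08 (1.81 to 2.39), against 1.31 (1.07 to 1.62) in the others, with counts in 16.1% of HFD cells and 9.58% of NC cells after thinning to 2000 counts (20.5% and 12.03% before it). Cacna1d, a calcium channel subunit, was at 105 CPM in HFD and 55.9 CPM in NC, a ratio of 1.88 (1.496 to 2.37), and Ppp1r14a, an inhibitor of myosin phosphatase, at 378 CPM in HFD and 227 CPM in NC, a ratio of 1.67 (1.48 to 1.87). Smim4, Plekha6 and Lbh had ratios of 1.98 (1.55 to 2.53), 1.91 (1.46 to 2.51) and 1.63 (1.45 to 1.84). At the lower end, Akap2, a kinase anchor, was at 38.7 CPM in HFD and 113 CPM in NC, a ratio of 0.341 (0.257 to 0.447), Tnfrsf12a, the TWEAK receptor, at 88.7 CPM in HFD and 222 CPM in NC, a ratio of 0.399 (0.331 to 0.478), and Ifi205 at 97.5 CPM in HFD and 243 CPM in NC, a ratio of 0.401 (0.336 to 0.477).

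**Figure D3:**
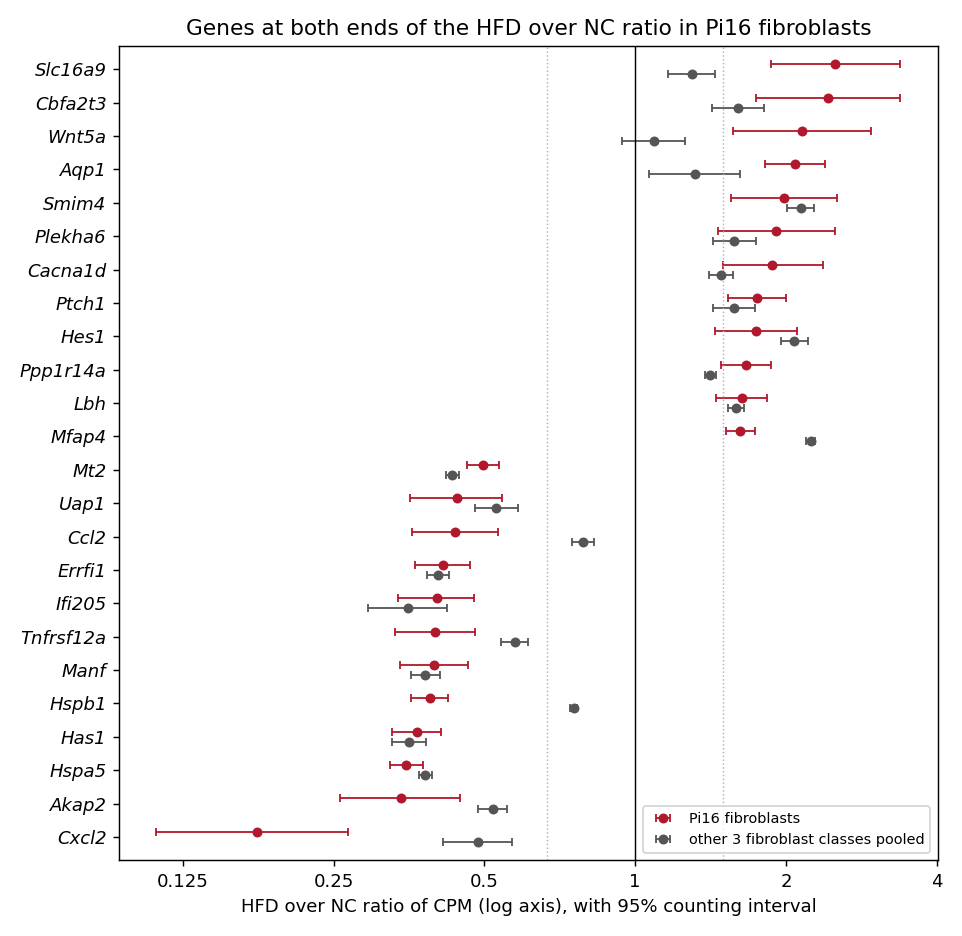
HFD over NC ratio of CPM (log axis, 95% intervals for counting error) of the 12 highest and 12 lowest ranked genes of Pi16 fibroblasts (red) and the same genes in the other 3 fibroblast classes pooled (grey); dotted lines mark 1.5-fold. Slc16a9, Wnt5a and Aqp1 are farther above 1 in Pi16 fibroblasts than in the others, Mfap4 is nearer to 1, and Hspa5, Manf, Has1 and Errfi1 lie at like ratios in both.

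Among metabolic lists, cholesterol synthesis had 5 of 12 measured members lower and 0 higher, with a median log2 ratio of −0.47, against −0.61 for the same genes in the other fibroblasts. Cyp51, a sterol demethylase, was at 10.6 CPM in HFD and 30.3 CPM in NC, a ratio of 0.351 (0.199 to 0.591), Hmgcs1 at 21.3 CPM in HFD and 40.6 CPM in NC, a ratio of 0.524 (0.349 to 0.773), and Fdps at 23.9 CPM in HFD and 37.7 CPM in NC, a ratio of 0.633 (0.427 to 0.924). The other metabolic lists held few members past 1.5-fold. Fatty acid uptake, storage and adipogenic genes had 2 of 20 higher and 2 lower, with a median of −0.12. Hilpda, an inhibitor of lipid droplet lipolysis, was at 26.5 CPM in HFD and 10.9 CPM in NC, a ratio of 2.43 (1.47 to 4.103), Abca1, a cholesterol exporter, at 96.6 CPM in HFD and 63.6 CPM in NC, a ratio of 1.52 (1.21 to 1.904), and the droplet protein Plin2 at 25.6 CPM in HFD and 42.8 CPM in NC, a ratio of 0.599 (0.412 to 0.8601). Fatty acid oxidation had 0 higher and 0 lower of 15, with a median of 0.08. Nuclear genes of the respiratory chain had 2 higher (Ndufa3 and Uqcr10) and 0 lower of 35, with a median log2 ratio of 0.14, against 0.31 for the same genes in the other fibroblasts.

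Retinoid genes had 1 of 12 higher and 2 lower, with a median of −0.01. Lrat, which esterifies retinol, was at 62.1 CPM in HFD and 33.3 CPM in NC, a ratio of 1.86 (1.38 to 2.52), and Aldh1a3, which makes retinoic acid, at 12.8 CPM in HFD and 25.6 CPM in NC, a ratio of 0.499 (0.293 to 0.823). The IGF and insulin list had 0 of 14 higher and 2 lower, with a median of −0.06, with the growth factor Igf1 at 95.03 CPM in HFD and 150.03 CPM in NC, a ratio of 0.633 (0.524 to 0.764), and Irs2, an insulin receptor substrate, at 65.4 CPM in HFD and 103 CPM in NC, a ratio of 0.636 (0.505 to 0.798). Vascular and growth factor signals had 1 of 20 higher and 2 lower, with a median of 0.08, and the neurotrophin Ntf3 was at 28.5 CPM in HFD and 11.3 CPM in NC, a ratio of 2.52 (1.55 to 4.19). Of 9 prostaglandin and purine genes, 1 was higher and 1 lower, with a median of −0.03. Ptgs2 (COX-2) was at 170.2 CPM in HFD and 292 CPM in NC, a ratio of 0.583 (0.507 to 0.669), and Entpd1 (CD39) at 26.5 CPM in HFD and 12.996 CPM in NC, a ratio of 2.04 (1.26 to 3.33). Antioxidant and detoxification genes had 0 of 27 higher and 1 lower (Txnrd1, at a ratio of 0.648), with a median of −0.10.

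**Figure D4:**
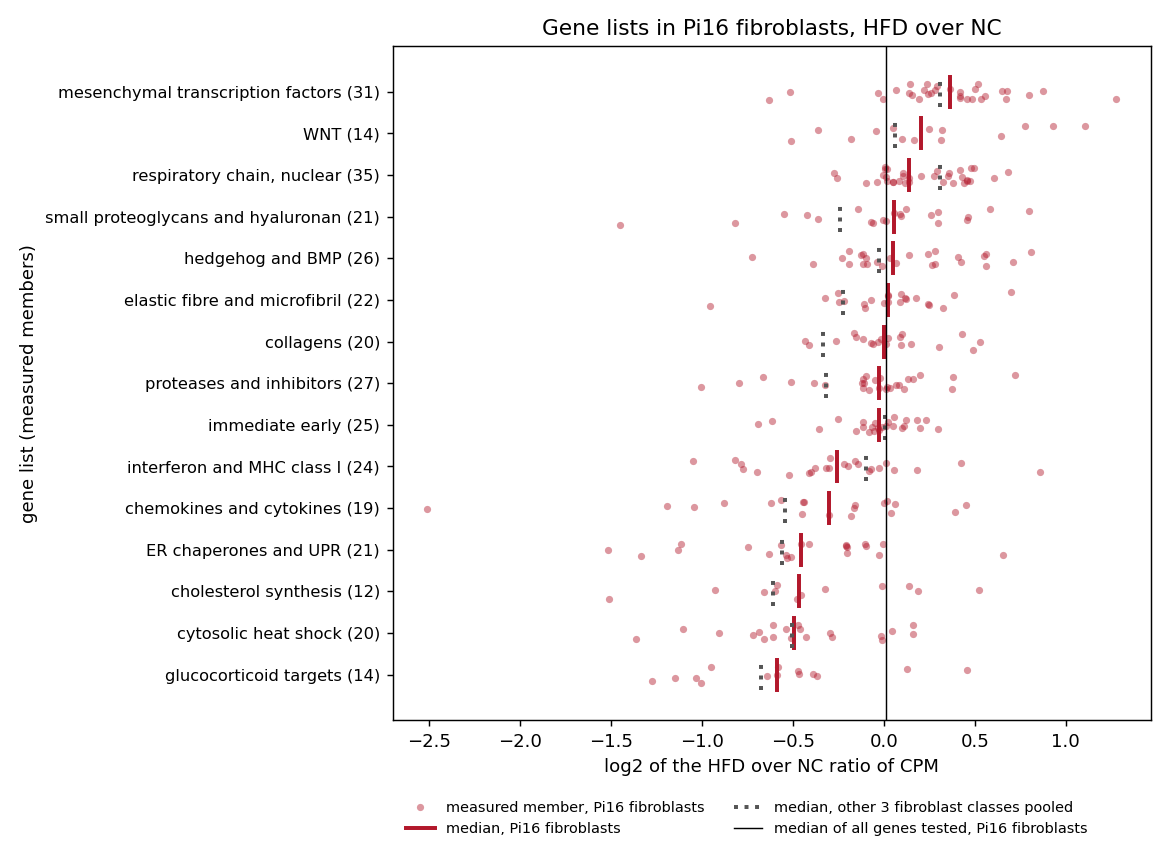
Log2 of the HFD over NC ratio of CPM for the measured members (points) of 15 gene lists in Pi16 fibroblasts, with the list median (solid bar), the median of the same genes in the other 3 fibroblast classes pooled (dotted bar) and the median of all 7497 genes (line, 0.013). Glucocorticoid, heat shock, ER and cholesterol lists lie left of 0 in both. Collagens, elastic fibre genes, proteoglycans and proteases lie near 0 in Pi16 fibroblasts and left of it in the others pooled, whose ratios also carry the change in their mix of classes.

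Within the class, diet ratios could be set out apart for cells with and without a Pi16 count. Hspa5 had ratios of 0.3596 (0.326 to 0.396) with and 0.335 (0.296 to 0.378) without Pi16, and Has1 0.381 (0.332 to 0.435) and 0.337 (0.274 to 0.412). Aqp1 had ratios of 2.09 (1.75 to 2.495) with and 2.07 (1.66 to 2.595) without Pi16. Hspb1 lay farther apart at 0.345 (0.305 to 0.3903) and 0.433 (0.386 to 0.485), as did Hes1 at 1.51 (1.18 to 1.94) and 2.09 (1.57 to 2.81) and Lbh at 1.899 (1.597 to 2.26) and 1.42 (1.21 to 1.67), with intervals that still overlapped. Of the 28 genes compared in this way, the intervals of the 2 ratios did not overlap for Dcn, Serpinf1, Ly6a and Ccl2. The same was not counted over all genes, so no share can be set beside it. Dcn had a ratio of 1.02 (0.991 to 1.05) in cells with and 0.8202 (0.785 to 0.857) in cells without Pi16, Serpinf1 1.203 (1.098 to 1.32) and 0.907 (0.769 to 1.07), and Ly6a 0.829 (0.759 to 0.904) and 0.585 (0.492 to 0.693). Ccl2, which rests on few cells, had ratios of 0.633 (0.487 to 0.817) with and 0.274 (0.196 to 0.377) without Pi16.

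Some genes had a diet ratio in Pi16 fibroblasts that stood apart from that in the other 3 fibroblast classes pooled. Gas6 fibroblasts made up 19.9% of HFD and 25.4% of NC fibroblasts, so the pooled ratio also carries the change in that mix, and each class's own ratio is given. The genes were ranked on this difference, so no test was made of it. Smoc2, a matricellular calcium-binding protein, was at 212 CPM in HFD and 173 CPM in NC Pi16 fibroblasts, a ratio of 1.22 (1.06 to 1.41), against 0.504 (0.434 to 0.584) in the others pooled. The ratio was 0.4801 in Asc1 and 0.585 in Gas6 fibroblasts and 0.674 in myofibroblasts. Ctsk had a ratio of 1.65 (1.36 to 1.99), against 1.03 in Asc1, 0.808 in Gas6 fibroblasts and 0.745 in myofibroblasts. Serpinf1 had a ratio of 1.12 (1.04 to 1.21), against 0.764, 0.673 and 0.808 in those classes. In myofibroblasts, which held few counts of these 3 genes, each interval included 1. Ly6a, lower in HFD in all 4 fibroblast classes, had a ratio of 0.765 (0.708 to 0.827), against 0.688, 0.445 and 0.103. Fgl2, a secreted fibrinogen-like protein, had a ratio of 0.931 (0.779 to 1.11), against 0.408, 0.507 and 1.69, and Kcnj8, a potassium channel, 1.08 (0.838 to 1.39), against 0.683, 0.436 and 0.456.

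On the other side, Llph, a nucleolar protein, was at 31.8 CPM in HFD and 58.005 CPM in NC Pi16 fibroblasts, a ratio of 0.548 (0.394 to 0.754), against 1.01 in Asc1, 1.37 in Gas6 fibroblasts and 1.16 in myofibroblasts. Dnlz, a mitochondrial zinc-binding protein, was at 36.6 CPM in HFD and 58.6 CPM in NC, a ratio of 0.625 (0.457 to 0.846), against 1.16, 1.22 and 0.714. Ifi27l2a, an interferon-inducible gene, had a ratio of 1.13 (1.04 to 1.24), against 2.09, 1.597 and 3.53. Hspb1 had a ratio of 0.389 (0.357 to 0.422), against 0.768, 0.594 and 0.692. Cxcl2 and Ccl2 had ratios of 0.175 and 0.437, against 1.68 and 0.7402 in Asc1, 0.475 and 0.963 in Gas6 fibroblasts and 0.119 and 0.341 in myofibroblasts. Of these genes, Cxcl2 and Ccl2 had a lower ratio in myofibroblasts than in Pi16 fibroblasts, so they do not single out the class.

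**Figure D5:**
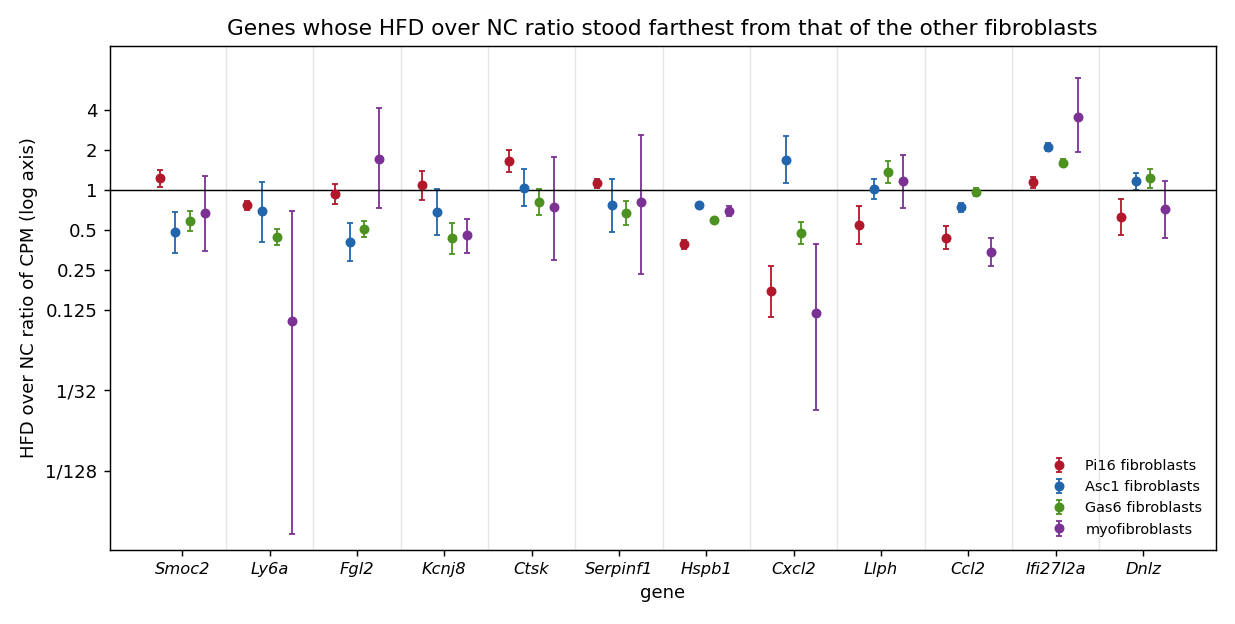
HFD over NC ratio of CPM (log axis, 95% intervals for counting error) in the 4 fibroblast classes (colours) for the 6 genes ranked highest and the 6 ranked lowest by the ratio in Pi16 fibroblasts over that in the other 3 classes pooled. Smoc2, Ctsk and Serpinf1 lie above 1 in Pi16 fibroblasts and below 1 in Gas6 fibroblasts, with wide intervals around 1 in myofibroblasts. Llph and Dnlz lie below 1 in Pi16 fibroblasts and above 1 in Gas6 fibroblasts. In Asc1 fibroblasts Llph lies at about 1 and Dnlz above it.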

How the data were processed

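Single-cell transcriptomes of lung fibroblastic stroma were measured in 1 HFD and 1 NC library. Per the labels, a 10x Genomics 3′ v3 kit was used. The submitters' processing notes name STAR and mm39; versions were not given in the sources used here. The deposited tables hold log2 of CPM plus 1 for 21014 genes, as found from the values. Per the file headers they also hold an estimated count total per cell and mitochondrial and ribosomal shares in percent. Counts were computed back from CPM and each cell's total and rounded to whole numbers; 98.8% of nonzero HFD values and 98.96% of nonzero NC values lay within 0.01 of one.

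Cells came from the deposited class column. No doublet caller was run; dropping the deepest 5% of cells was an alternative. Counts were summed per class and library (8460116 in HFD and 9464740 in NC Pi16 fibroblasts). Ratios have exact conditional Poisson intervals on counts divided by a variance factor, the median, over genes seen in 0.1 to 1% of kept cells, of the sum of squared counts over the sum of counts. Shares have exact Clopper-Pearson intervals. The ratio calculation was run on simulated Poisson counts with the same variance factor that the intervals assume. That run checks the calculation only and holds no spread between cells or libraries.

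The members and the 27 gene lists were chosen with earlier results of these data known. Genes were eligible to be named from 100 counts after that division and 50 CPM in either library. The text names the 12 highest and 12 lowest diet ratios by the bound nearest to 1, the 20 highest and 6 lowest genes of the class, 6 at each end of the difference from other fibroblasts, up to 4 per list and 5 most like Pi16. Mitochondrial, ribosomal, predicted, globin and antibody genes were left out of the ranking. Some genes that this rule picked are not reported here. Further list members named for their known roles were chosen after their values were seen. Sequences are from RefSeq tables (GRCm38.p6). Python 3.11.15, numpy 2.4.6, scipy 1.17.1, pandas 2.3.3 and matplotlib 3.10.9 were used.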

Additional observations from a re-analysis of the deposited data

Results flagged for a closer look

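The 5 genes set out here were picked from those ranked on the difference between classes. Their diet difference ran in opposite directions in Pi16 fibroblasts and in the other 3 fibroblast classes pooled. Genes outside that ranking did so too, such as 3830406C13Rik, at ratios of 1.87 and 0.961, and their share of all genes was not counted. There is 1 library per diet, and the difference between classes was not tested. Smoc2 had an HFD over NC ratio of 1.22 in Pi16 fibroblasts and 0.504 in the others. Ctsk had ratios of 1.65 and 0.799, and Serpinf1 1.12 and 0.599. Llph had ratios of 0.548 in Pi16 fibroblasts and 1.17 in the others, and Dnlz 0.625 and 1.16. The pooled ratios also carry the change in the mix of classes. For Serpinf1 the single classes were at 0.764 (Asc1), 0.673 (Gas6) and 0.808 (myofibroblasts), all nearer to 1 than the pooled value, and Ctsk was at 1.03 in Asc1 fibroblasts. Llph was close to 1 in Asc1 fibroblasts, and Dnlz was at 0.714 in myofibroblasts, below 1 as in Pi16 fibroblasts.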

How the results depend on the processing

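No paired analysis was possible because each diet had 1 library, and no library could be left out. The share of Pi16 fibroblasts moved to 11.9% in HFD and 14.1% in NC with all deposited cells, to 12.01% and 13.98% with at least 3 markers required, and to 7.06% and 8.13% with a Pi16 count required. With the later subset column it moved to 14.4% in HFD. The last 2 alternatives were chosen after seeing the data. Thinning cells to 2000 counts gave 85 genes higher, 116 lower and 43 marking the class, where fewer genes pass the minimum. Needing only 1 count in each library gave 3398, 2670 and 300, where more do. The other counts stayed within 1.5 times. The 27 list medians moved by less than the spread of their members in all 242 recomputed values. Of the named genes' recomputed values, 319 stayed within their interval and 22 did not, and 0 past 1.5-fold turned direction. The log2 ratio ran over −1.65 to −1.41 for Hspa5, 0.94 to 1.27 for Aqp1, −1.58 to −0.96 for Tnfrsf12a (lowest in size after thinning) and −1.98 to −0.66 for Ccl2, the widest among the ranked genes (largest in size with stricter cell limits, smallest in cells with a Pi16 count). Those of Dcn, Dpt and Fgl2 crossed 0. Depth limits the rarer genes, and intervals cover counting error only.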
